A study of Mus musculus with 8 samples.

Results

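The genes described here are the 7 that encode the WIPI proteins, the ATG2 lipid transfer proteins and ATG9A in mouse: Wipi1, Wipi2, Wdr45, Wdr45b, Atg2a, Atg2b and Atg9a. They were chosen by their role in autophagosome growth and found by symbol among the 21080 genes of the deposited tables, where all 7 were present and passed the filter on low values in every comparison. RNA-seq was available for bone marrow-derived macrophages (BMDMs) in 4 groups of 2 samples each: WT at 0 h, Nudt21-cKO at 0 h, WT after IFNγ/LPS for 4 h and Nudt21-cKO after IFNγ/LPS for 4 h. Nudt21-cKO mice carried Nudt21 fl/fl with LysM-Cre, a Cre driven by the lysozyme M promoter of myeloid cells, and the mice called WT carried LysM-Cre as well, so that both genotypes expressed the recombinase. By the study's methods, each sample pooled BMDMs of 2 mice, the cells were grown in M-CSF, and stimulation was IFNγ overnight followed by LPS for 4 h. The ages of the mice were not given in the labels. The comparisons ask how loss of Nudt21, an RNA-binding subunit of the cleavage factor that helps choose polyadenylation sites, and inflammatory stimulation bear on the mRNA level of these autophagy genes.

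An autophagosome forms from a small cup of membrane, the phagophore, which has to grow by taking up lipid. Seed membrane arrives on vesicles that carry ATG9A, a lipid scramblase, and ATG2 proteins then form a bridge along which phospholipids flow from the endoplasmic reticulum. WIPI proteins are propeller-shaped readers of the lipid PI3P that mark the site: WIPI2 brings in the ATG16L1 complex that conjugates LC3 to the membrane, and WDR45 (also called WIPI4) and WDR45B (also called WIPI3) bind ATG2.

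Nudt21 protein binds the RNA motif UGUA upstream of cleavage sites, so the 3'UTRs of the 7 genes were searched for TGTA on the transcribed strand. In the GENCODE annotation of GRCm38, each of the 7 coding transcripts examined ended in a single 3'UTR within its last exon, and each of these 3'UTRs held the motif. Wipi2 had the longest 3'UTR, 3616 bases or 69.9% of its transcript, with 12 motifs, while that of Wdr45 was 347 bases long with 3 motifs. Wipi1 had 6 motifs in 589 bases, Wdr45b 7 in 1134, Atg2a 2 in 498, Atg2b 6 in 937 and Atg9a 2 in 1061. Across 15602 genes with an annotated 3'UTR, 85.1% held at least 1 TGTA, and the median was 5 motifs in a median length of 930 bases, so that carrying the motif did not set the 7 genes apart. The density ran from 1.89 motifs per kilobase in Atg9a and 3.32 in Wipi2 to 10.2 in Wipi1, with a median over all genes of 4.93. A match to these letters is a description of the sequence, and binding of Nudt21 to it was not measured in these files. By RNA immunoprecipitation in stimulated WT BMDMs, the study reported binding of Nudt21 to Map1lc3b and Ulk2 mRNA but none to Wipi2 mRNA. It also reported that decay of Wipi2 mRNA was unaffected in Nudt21-cKO.

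**Figure D1:**
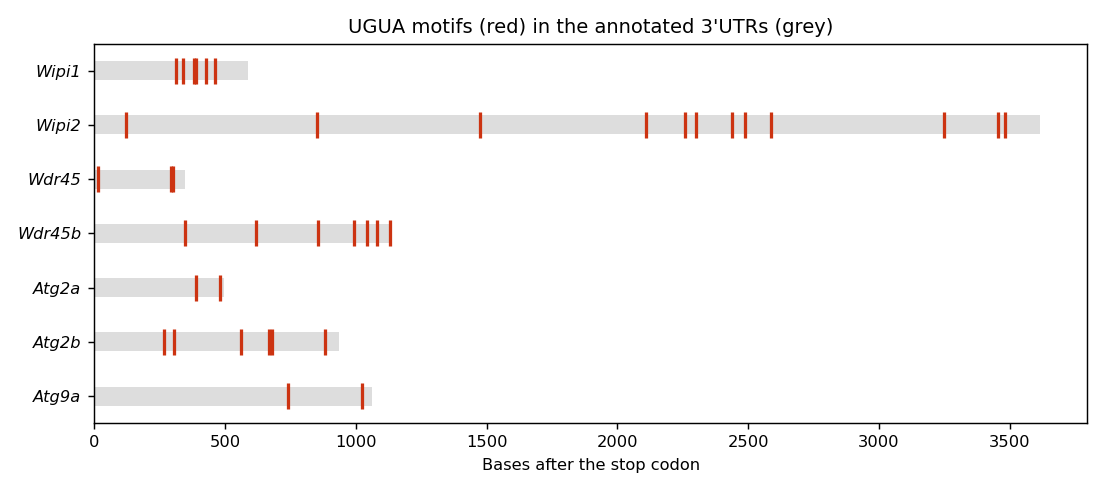
Positions of the motif UGUA (red) in the annotated 3'UTRs (grey) of the 7 genes, in bases after the stop codon. Wipi2, with 3616 bases, has the longest 3'UTR and 12 motifs, and Wdr45, with 347 bases, has the shortest.

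Since Nudt21 acts upstream of a cleavage site, the last motif before the annotated transcript end that leaves room for a full window is shown for each gene, as 30 bases of its 3'UTR in GRCm38 on the transcribed strand, 5′ to 3′, with that TGTA in capitals and the start and end of the window counted from 1.
Wipi1, chr11:109573441-109573470, minus strand: gaattgtgtttcgTGTAtattacaaatata
Wipi2, chr5:142670442-142670471, plus strand: cttagactatattTGTActctgtggggttt
Wdr45, chrX:7728146-7728175, plus strand: atagtctctgtaaTGTAtatgaataaaagg
Wdr45b, chr11:121327262-121327291, minus strand: ttgcacacttgttTGTActgttttctttga
Atg2a, chr19:6262306-6262335, plus strand: cgtccaggtcctcTGTAcctgtgagacccc
Atg2b, chr12:105616173-105616202, minus strand: acttggttaataaTGTAcattttgataact
Atg9a, chr1:75180887-75180916, minus strand: agggtgggagcccTGTAcagcttgataacc
The distance from the end of this motif to the annotated transcript end was 13 bases in Atg2a, 35 in Atg9a, 44 in Wdr45, 50 in Atg2b, 51 in Wdr45b, 123 in Wipi1 and 130 in Wipi2. Wdr45b held 1 further motif, 2 bases before its annotated end, and in the other 6 genes the motif shown was the last. The window of Wdr45 also holds the motif before it, left in lower case, which starts at base 295 of the 3'UTR where the one in capitals starts at base 300.

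The deposited values are coverage, the mean number of reads over each base of a gene, which already accounts for gene length but was not scaled between samples. Nudt21 itself had a coverage at 0 h of 718 and 641 in WT and of 158 and 172 in Nudt21-cKO, and of 547 and 575 against 142 and 115 at 4 h. It fell by 2.04 on the log2 scale at 0 h (adjusted p = 0.0462) and by 2.13 at 4 h (adjusted p = 0.0445, limma), and the genotypes did not overlap at either time. Total coverage per sample ranged from 14950347 to 17954882, but the median gene had a coverage of 33 to 36.4 at 0 h, 10.4 and 12.7 in WT at 4 h and 14.6 and 14.7 in Nudt21-cKO at 4 h. Changes are therefore also given relative to the median change of all genes tested. Macrophage markers such as Csf1r, Adgre1 and Cd68 were detected in every group, with 9 of 9 listed markers averaging 0.5 or more and a summed coverage of 122300 to 133905 at 0 h and 64275 to 75316 at 4 h. Single markers differed between genotypes in both directions: mean coverage at 0 h was 41478 in WT and 28272 in Nudt21-cKO for Csf1r, 22294 and 14058 for Adgre1 and 1937 and 1046 for Mrc1, but 44206 and 71406 for Cd68 and 749 and 1266 for Lyz2. At 4 h it was 13603 and 13183 for Csf1r, 12850 and 9313 for Adgre1, 155 and 46.7 for Mrc1, 12731 and 26822 for Cd68 and 526 and 927 for Lyz2. A list of 6 IFNγ/LPS response genes, Nos2, Il6 and Tnf among them, summed to 905 to 1073 at 0 h and, in the samples titled 4 h, to 367077 to 456126 in WT and 475880 to 514518 in Nudt21-cKO. Listed B cell, T cell and erythroid markers each summed to at most 4.36 in any sample, dendritic cell markers to at most 60.9 and fibroblast markers to at most 219. A list of 7 neutrophil and precursor genes summed to 22468 to 24380 in WT and 26051 to 34649 in Nudt21-cKO at 0 h. At 4 h it summed to 17504 to 21568 in WT and 21850 to 24872 in Nudt21-cKO. Group means over the 4 groups ran from 11033 to 15681 for S100a9, 5155 to 8311 for S100a8 and 2720 to 5064 for Ngp. They ran from 425 to 667 for Camp, 90.6 to 418 for Elane, 76.5 to 280 for Mpo and 0 to 3.68 for Ly6g. The part of the macrophage, response and neutrophil genes in the genotype differences below was not tested.

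Among the 7 genes at 0 h in WT, Wdr45b had the highest coverage, 1056 ± 36.5 (SD, n = 2), and Atg2b the lowest, 292 ± 22.1. Atg2a, Wdr45 and Wipi2 lay between 652 and 793 with overlapping samples, followed by Atg9a at 610 ± 30.5 and Wipi1 at 476 ± 2.24. In Nudt21-cKO at 0 h, Wipi2 stood at 988 ± 50.5, and its samples overlapped those of Wdr45b at 1020 ± 33.2. After 4 h the order changed: Wdr45b stayed first at 595 ± 35.8 in WT and 595 ± 13.5 in Nudt21-cKO, and Atg9a moved to the second place at 349 ± 11 and 474 ± 31.6. Wdr45, which at 0 h had about the level of Atg2a, came after Wipi1 in WT at 4 h with 76.1 ± 6.26, and Atg2b stayed last with 29.6 ± 4.21. The 7 genes together summed to 4521 to 4868 per sample at 0 h, to 1443 and 1420 in WT at 4 h and to 1905 and 2012 in Nudt21-cKO at 4 h.

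**Figure D2:**
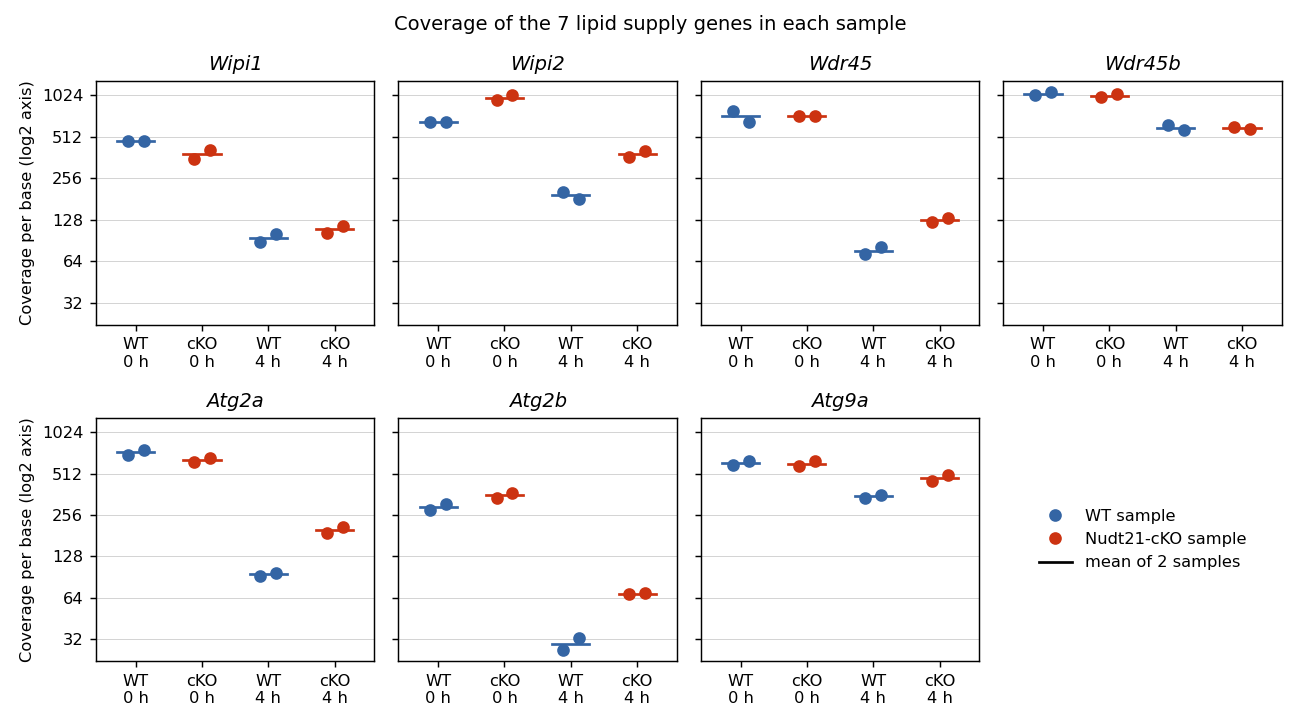
Coverage per base of each gene in each of the 8 samples, on a log2 axis. Points are samples, blue for WT and red for Nudt21-cKO, and lines are means of 2 samples. At 4 h the Nudt21-cKO samples of Wipi1, Wipi2, Wdr45, Atg2a, Atg2b and Atg9a lie above both WT samples, while those of Wdr45b lie within the WT range. The share of all genes separated in this way was not counted.

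After IFNγ/LPS for 4 h, 4 of the 7 genes were higher in Nudt21-cKO than in WT BMDMs: Wipi2, Wdr45, Atg2a and Atg2b. A gene was called at the cut-offs of the study's methods, a fold change above 1.5 with an unadjusted p under 0.05, here from limma. The authors' own p-values were not used, so the counts by this rule are not those the study reported. By that rule 25.0% of all 14950 genes tested were called at 4 h, 20.8% as higher and 4.17% as lower, and the median gene was itself 0.31 higher in Nudt21-cKO on the log2 scale. Of all genes tested, 70.7% had a log2 fold change above 0, and the share whose genotypes did not overlap was not counted. None of the 7 was called lower. None passed a Benjamini-Hochberg adjusted p under 0.05 in limma, which 3.86% of all genes did with the same fold. With 2 samples against 2, an exact permutation test cannot give a p below 0.333, so that these p-values rest on the spread estimated across all genes. In bulk RNA a lower share of a cell type and less RNA per cell cannot be told apart.

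Of the WIPI genes, Wipi2 had a coverage at 4 h of 202 and 182 in WT and of 366 and 404 in Nudt21-cKO. The genotypes did not overlap, and the higher Nudt21-cKO level amounted to a log2 fold change of 1.0 ± 0.127 (SE; adjusted p = 0.0583 in limma), 0.70 above the median gene. Wdr45, mutated in a childhood-onset human neurodegeneration with brain iron accumulation, stood at 71.6 and 80.5 in WT and 123 and 132 in Nudt21-cKO, again without overlap. Its log2 fold change was 0.75 ± 0.123 (adjusted p = 0.0694, limma), 0.44 above the median gene. The call on Wdr45 was lost under each of the 3 scalings tried, where its log2 fold change was 0.41 on a common median, 0.40 with quantile normalization and 0.54 at equal total coverage, and when Nudt21-cKO replicate 4 was left out, where it was 0.70 and the unadjusted p was above 0.05.

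The related genes Wipi1 and Wdr45b did not pass at 4 h. Wipi1, the other PI3P reader closest to Wipi2 in sequence, had a coverage of 88.5 and 101 in WT and 103 and 115 in Nudt21-cKO, which did not overlap, a log2 fold change of 0.21 ± 0.138 (adjusted p = 0.382, limma). Wdr45b gave 620 and 570 in WT and 604 and 585 in Nudt21-cKO, so that the genotypes overlapped and the log2 fold change was 0.00 ± 0.109. Relative to the median gene, Wipi1 was at -0.10 and Wdr45b at -0.31, and under each of the 3 scalings both turned negative.

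Both ATG2 genes were higher in Nudt21-cKO at 4 h. Atg2a, the lipid bridge gene with the higher coverage, stood at 92.4 and 97.4 in WT and 188 and 210 in Nudt21-cKO, a log2 fold change of 1.07 ± 0.118 (adjusted p = 0.0542, limma). Atg2b stood at 26.6 and 32.6 in WT and 68.0 and 69.2 in Nudt21-cKO, a log2 fold change of 1.22 ± 0.151 (adjusted p = 0.0576). This was the largest change among the 7 genes, at 2.32-fold, and 86.5% of all genes tested had a smaller log2 fold change. Without WT replicate 1 of 4 h, the log2 fold change was 1.07 for Atg2b and 1.08 for Wipi2. Atg9a gave 341 and 357 in WT and 452 and 497 in Nudt21-cKO, which did not overlap, but its log2 fold change of 0.44 ± 0.113 (adjusted p = 0.109) was under the fold required and lay 0.13 above the median gene. Wipi2, Atg2a and Atg2b kept the call under each of the 3 scalings, with log2 fold changes of 0.67, 0.73 and 0.88 on a common median. On that scale 1552 of all 14950 genes were called higher and 1480 lower.

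**Figure D3:**
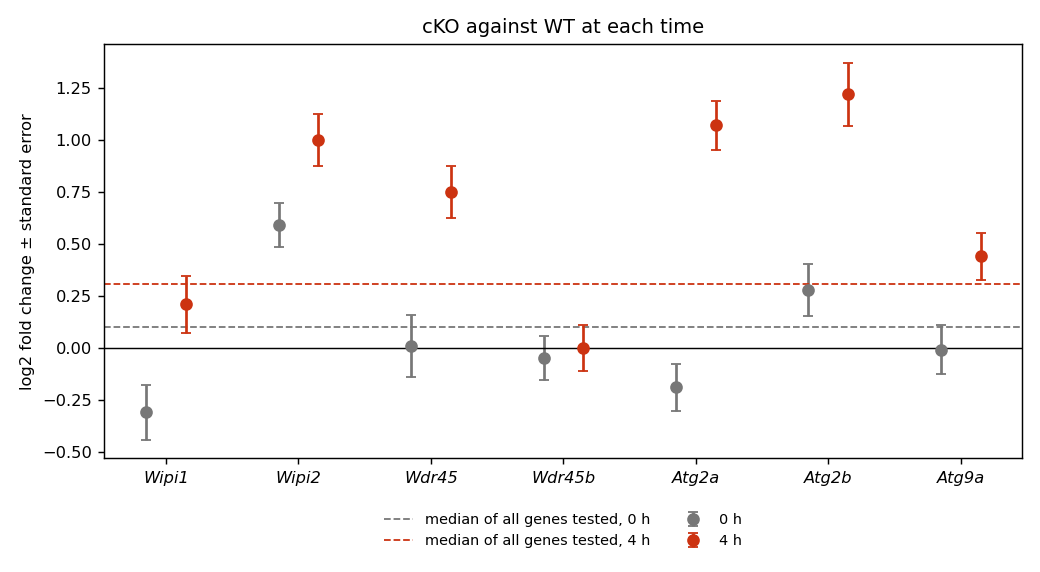
Log2 fold change of Nudt21-cKO against WT for each gene at 0 h (grey) and at 4 h (red), with bars of 1 standard error from limma on 2 samples a group. Dashed lines give the median change of all genes tested, 0.10 at 0 h and 0.31 at 4 h. At 4 h Wipi2, Wdr45, Atg2a and Atg2b lie well above that median, and Wipi1 and Wdr45b lie under it.

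Without stimulation, 1 of the 7 genes, Wipi2, was called higher in Nudt21-cKO, where 14.6% of all 16251 genes tested were called, 8.99% as higher and 5.61% as lower. Wipi2 coverage was 659 and 652 in WT and 952 and 1023 in Nudt21-cKO, with no overlap. The log2 fold change was 0.59 ± 0.106 (adjusted p = 0.134, limma), a fold of 1.51 that barely passed the limit of 1.5. The call was lost under each of the 3 scalings, where the log2 fold change lay between 0.46 and 0.50, and without WT replicate 2 (0.58) or without Nudt21-cKO replicate 4 (0.54).

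The other 6 genes were not called at 0 h. Wipi1 was at 474 and 477 in WT and 355 and 413 in Nudt21-cKO, which did not overlap, and its log2 fold change was -0.31 ± 0.131 (adjusted p = 0.305, limma). Atg2b was at 276 and 307 against 340 and 370, with a log2 fold change of 0.28 ± 0.125 (adjusted p = 0.322), and Atg2a at 700 and 758 against 620 and 661, with -0.19 ± 0.114 (adjusted p = 0.432). At this time the ATG2 genes thus lay on opposite sides of 0, neither past the threshold. Wdr45 gave 793 and 653 in WT and 727 and 726 in Nudt21-cKO, and Wdr45b gave 1030 and 1082 against 996 and 1043. Atg9a gave 588 and 632 against 577 and 632, and for these last 3 genes the genotypes overlapped and the log2 fold changes were between -0.05 and 0.01. None of the 7 passed the adjusted threshold at 0 h, which 1.03% of all genes did with the same fold.

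On the deposited scale, mean coverage of the 7 lipid supply genes was lower at 4 h than at 0 h, as was that of most genes. In WT, 7 of 7 were called lower at 4 h than at 0 h, where 55.1% of all 16002 genes tested were called lower and 11.9% higher, 67.0% in all. All 7 also passed with an adjusted p under 0.05, as 63.7% of all genes did with the same fold. The median gene fell by 1.27 on the log2 scale, so the members are described against that shift. Atg2b and Wdr45 had the lowest log2 fold changes, -3.30 ± 0.177 (adjusted p = 0.0031, limma) and -3.24 ± 0.177 (adjusted p = 0.00313). The order changed with quantile normalization, with -2.20 for Wdr45, -1.93 for Atg2a and -1.90 for Atg2b. On the deposited scale Atg2b and Wdr45 came to 0.101 and 0.106 of their level at 0 h, which is -2.03 and -1.97 relative to the median change. Atg2a, with -2.94 ± 0.131, and Wipi1, with -2.33 ± 0.141, were at -1.67 and -1.06 relative to it, and Wipi2, with -1.77 ± 0.133, at -0.50.

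Wdr45b and Atg9a changed less than the median gene in WT. Wdr45b went from 1030 and 1082 to 620 and 570, a log2 fold change of -0.83 ± 0.132 (adjusted p = 0.0154, limma). Atg9a went from 588 and 632 to 341 and 357, a log2 fold change of -0.80 ± 0.128 (adjusted p = 0.0156). When the samples were brought to a common median, 5361 of all 16002 genes were called higher at 4 h and 3581 lower. Wipi1, Wdr45, Atg2a and Atg2b were still called lower, and Wipi2, at -0.32, was not called. Wdr45b and Atg9a were both called higher on that scale, at 0.62 and 0.65. With quantile normalization neither was called in WT, at -0.33 for Wdr45b and 0.02 for Atg9a, so the direction of Atg9a turned under both of these scalings and that of Wdr45b on a common median alone.

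In Nudt21-cKO, 6 of 7 were called lower at 4 h, where 53.2% of all 16223 genes tested were called lower and 13.7% higher, 66.9% in all, and the median gene fell by 1.05. The same 6 passed with an adjusted p under 0.05, as 64.8% of all genes did. Wdr45 changed by -2.51 ± 0.088, Atg2b by -2.37 ± 0.093, Wipi1 by -1.81 ± 0.136 and Atg2a by -1.69 ± 0.108, with adjusted p-values in limma of 0.00149, 0.00163, 0.00336 and 0.00269. Wipi2 changed by -1.36 ± 0.107 and Wdr45b by -0.78 ± 0.085. Atg9a, from 577 and 632 to 452 and 497, was not called, with a log2 fold change of -0.35 ± 0.11 (adjusted p = 0.0685), 0.70 above the median change. On a common median Atg9a was called higher, at 0.85, and Wipi1, Wdr45 and Atg2b were called lower. On that scale 5305 of all 16223 genes were called higher and 3758 lower.

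**Figure D4:**
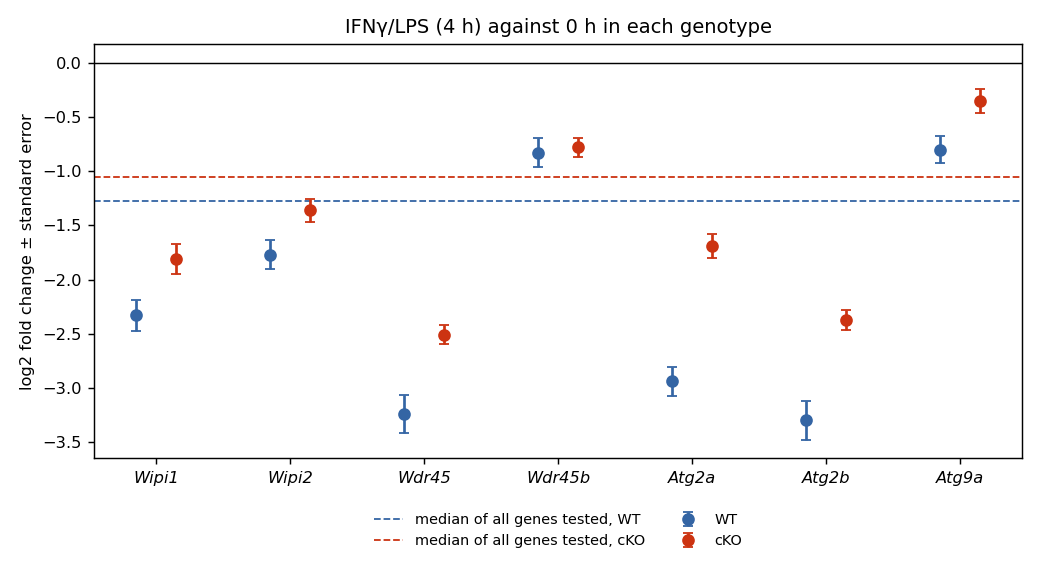
Log2 fold change of 4 h IFNγ/LPS against 0 h for each gene in WT (blue) and Nudt21-cKO (red), with bars of 1 standard error from limma on 2 samples a group. Dashed lines give the median change of all genes tested, -1.27 in WT and -1.05 in Nudt21-cKO. Wipi1, Wipi2, Wdr45, Atg2a and Atg2b lie under these medians and Wdr45b and Atg9a above them, which on a common median turned the direction of the last 2.

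Whether the genotype difference itself changed with stimulation was tested with the interaction term over all 8 samples, the difference of Nudt21-cKO from WT at 4 h minus that at 0 h. It reuses the samples of the comparisons above and is no separate evidence for them. Of the 7 genes, 3 were called, each with a larger value at 4 h, where 17.5% of all 16284 genes tested were called, 13.5% as larger and 4.05% as smaller, and the median gene was at 0.20. Atg2a had the largest term, 1.25 ± 0.154 (adjusted p = 0.0279, limma), and was the member that passed the adjusted threshold, which 3.05% of all genes did with the same fold. With replicate number as a block this adjusted call was lost, and 31 genes in place of 496 had an adjusted p under 0.05. The Nudt21-cKO samples of Atg2a lay under the WT samples at 0 h and above them at 4 h. The adjusted p was 0.0627 on a common median, 0.0455 with quantile normalization and 0.033 at equal total coverage, and lay between 0.043 and 0.0981 when any 1 of the 8 samples was left out, passing the threshold without WT replicate 2 of 4 h and not without each of the other 7.

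Atg2b followed with 0.93 ± 0.194 (adjusted p = 0.0775, limma) and Wdr45 with 0.73 ± 0.19 (adjusted p = 0.113). The call on Wdr45 was lost on a common median, at 0.47, and with quantile normalization, at 0.51. Wipi1 had a term of 0.52 ± 0.187, Atg9a of 0.45 ± 0.153 and Wipi2 of 0.41 ± 0.155, which were under the fold required with adjusted p-values of 0.198, 0.179 and 0.212. Wdr45b, the gene whose genotypes overlapped at both times, had a term of 0.05 ± 0.136 (adjusted p = 0.866) that changed sign with the scaling.

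Ratios of related genes within a sample do not depend on a single scaling factor for that sample. They were taken after the values had been seen and are given without a test. Wipi2 over Wipi1 was 1.39 and 1.37 in WT and 2.68 and 2.48 in Nudt21-cKO at 0 h, and 2.28 and 1.8 against 3.55 and 3.51 at 4 h. The 2 genotypes did not overlap at either time, and the log2 ratio was higher in Nudt21-cKO by 0.90 at 0 h (pooled SD 0.058) and by 0.80 at 4 h (pooled SD 0.17). The coverage ratio of these mRNAs was thus shifted to Wipi2 at both times, by amounts that differed by -0.10 between times, with a pooled SD of 0.127. Protein was not measured. The annotated 3'UTR was 69.9% of the Wipi2 transcript and 28.7% of the Wipi1 transcript, and its part in the ratio was not tested.

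Wdr45 over Wdr45b was 0.77 and 0.603 in WT and 0.73 and 0.696 in Nudt21-cKO at 0 h, where the genotypes overlapped. At 4 h it was 0.116 and 0.141 in WT and 0.204 and 0.225 in Nudt21-cKO, a log2 difference of 0.75 (pooled SD 0.162) with no overlap. The ATG2 pair behaved the other way round in time: Atg2b over Atg2a was 0.395 and 0.405 in WT and 0.549 and 0.56 in Nudt21-cKO at 0 h, a log2 difference of 0.47 (pooled SD 0.024). At 4 h it was 0.288 and 0.335 against 0.361 and 0.329, which overlapped. With stimulation the log2 ratio of Wdr45 to Wdr45b changed by -2.42 in WT and -1.73 in Nudt21-cKO, the largest shift among the 3 pairs.

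**Figure D5:**
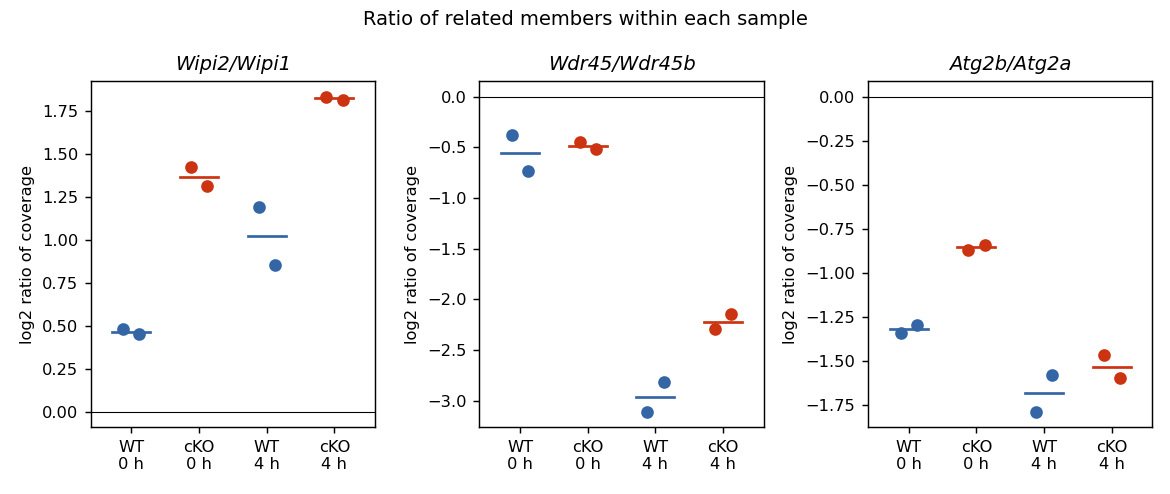
Log2 ratio of coverage of related genes within each of the 8 samples, blue for WT and red for Nudt21-cKO, with lines for means of 2 samples. Wipi2 over Wipi1 is higher in Nudt21-cKO at both times, Wdr45 over Wdr45b at 4 h and Atg2b over Atg2a at 0 h.

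The steps around lipid supply were described with a list of 52 other autophagy genes, of which 51 were found in the tables and tested. At 4 h 10 of the 51 were called higher in Nudt21-cKO and 0 lower, where 20.8% of all genes were called higher and 4.17% lower, with a median log2 fold change of 0.43 beside 0.75 for the 7 lipid supply genes and 0.31 for all genes. The called genes included 3 of 5 of the ULK initiation complex and 3 of 11 conjugation genes, 0 of the 6 class III PI3-kinase genes that make the PI3P read by WIPI proteins, and 0 of the 2 scramblase genes Vmp1 and Tmem41b whose products act with ATG2 at the endoplasmic reticulum. Of the ATG9 vesicle traffic genes 2 of 13 were called, and of the 4 VPS13 relatives of ATG2 0 were called. Those with an adjusted p under 0.05 were Map1lc3b, encoding the LC3B that is conjugated to the phagophore, with a log2 fold change of 1.23 ± 0.1 (adjusted p = 0.0466, limma), and Rusc2, an adaptor in ATG9A vesicle transport, with 1.43 ± 0.13 (adjusted p = 0.048). Neither passed on a common median, with adjusted p-values of 0.0817 and 0.0745. The protease gene Atg4c had the largest rise, 1.84 ± 0.258 (adjusted p = 0.0619), and the lowest value was that of the transport adaptor Hook1, at -1.10 ± 1.078 (adjusted p = 0.519). On a common median 8 were called higher and 2 lower, where 1552 of all 14950 genes were called higher and 1480 lower.

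At 0 h 6 of the 51 were called higher and 0 lower, where 8.99% of all genes were called higher and 5.61% lower. The count was 2 without Nudt21-cKO replicate 4 and 3 without WT replicate 2. The list had a median log2 fold change of 0.14, and 2 higher and 0 lower on a common median, where 1178 of all 16251 genes were called higher and 1135 lower. Both scramblase genes were among the 6, Vmp1 at 0.74 ± 0.205 (adjusted p = 0.204) and Tmem41b at 0.62 ± 0.112 (adjusted p = 0.136, limma), and the largest rise was that of Atg12 at 0.82 ± 0.117 (adjusted p = 0.111). Adjusted p-values of the 6 lay between 0.111 and 0.204. Stimulation in WT gave 1 higher and 38 lower of 51, where 11.9% of all genes were called higher and 55.1% lower. The median of the list was -1.60 beside -1.27 for all genes, and its values ran from -3.88 ± 0.162 for Atg4c to 1.87 ± 0.126 for Mtmr14, which encodes a phosphatase that removes PI3P. In Nudt21-cKO it gave 4 higher and 40 lower, where 13.7% of all genes were called higher and 53.2% lower. The median was -1.25 beside -1.05 for all genes, with values from -3.19 ± 0.277 for the ATG9 paralog Atg9b to 1.82 ± 0.098 for Mtmr14. On a common median these counts became 14 higher and 19 lower in WT and 11 higher and 16 lower in Nudt21-cKO. Over all genes 5361 were then called higher and 3581 lower in WT, and 5305 higher and 3758 lower in Nudt21-cKO.

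The interaction term was called for 12 of the 51, 10 larger and 2 smaller at 4 h, where 13.5% of all genes were called larger and 4.05% smaller. Map1lc3b, at 1.16 ± 0.122 (adjusted p = 0.0193, limma), and the initiating kinase gene Ulk1, at 1.12 ± 0.175 (adjusted p = 0.0475), passed the adjusted threshold. Neither did on a common median, with adjusted p-values of 0.0622 and 0.0787. The largest term was that of Atg4c at 1.39 ± 0.312, and the lowest called were Vmp1 at -0.74 ± 0.242 and Ap4e1, of the adaptor complex that exports ATG9A from the Golgi, at -0.85 ± 0.234. Ap4e1 passed the adjusted threshold on a common median, at -1.12 (adjusted p = 0.0429, limma). With samples on a common median, 5 were called larger and 4 smaller, where 1216 of all 16284 genes were called larger and 1441 smaller.

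The genes whose log2 coverage was most like that of Wipi2 over the 8 samples, among the 12024 genes whose coverage averaged 10 or more, were Kansl1 with a Pearson r of 0.999 and Mob2, Adra1a, Uap1l1 and Fam76a with 0.998 each. On a common median their r with Wipi2 ranged from 0.938 for Kansl1 to 0.997 for Fam76a. These are descriptions over samples that share the stimulation contrast, and the 7 lipid supply genes were likewise related to each other by r of 0.864 to 0.991. With each sample on a common median, Atg2a and Atg2b still had an r of 0.972 and Wdr45 and Atg2b of 0.972, whereas Atg9a had an r of -0.916 with Wdr45 and of -0.857 with Wipi1. Atg9a and Wdr45b were positively related at 0.577, the pair that fell less than the median gene in WT.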

How the data were processed

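RNA-seq of 8 BMDM samples was used, and each sample was assigned to its group by its title. The treatment label gives the stimulation for all 8 samples, also those titled 0 h, which were taken as unstimulated from their titles. The authors aligned reads with HISAT2 2.2.1 to GRCm38 (mm10) and quantified RefSeq genes with StringTie 2.1.7. They deposited 1 table per time with a signal per gene and sample, which was read from its values as StringTie coverage per base, not scaled between samples. The deposited tables also hold the authors' fold changes and p-values, which were not used, and 0 columns of per-sample values were left out. Coverage is averaged over the gene model, so reads lost from a 3'UTR lower it, by more where the 3'UTR is a larger share. This was not tested.

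Values were compared as log2(coverage + 0.1) with limma 3.58.1 in R 4.3.3 over genes with a mean of at least 0.5 in the samples compared, with Benjamini-Hochberg adjustment over all genes. A fold is on that log2 scale. A gene was called at a fold above 1.5 with an unadjusted p under 0.05. Alternatives were a pseudocount of 1, no filter, median-centring, quantile normalization, equal total coverage, an intensity trend, adjusted p-values, all 8 samples in 1 fit, a replicate block and leaving out each sample. The limma script was tested on simulated data. Named were the 7 members, Nudt21, list genes with an adjusted p under 0.05 or the largest rise or fall, and the 5 genes most like Wipi2. Vmp1, Tmem41b and Ap4e1 were named after their values were seen. The members and lists were chosen with earlier results of these data known, and so were the tests. The 2 samples of a group were pools of mice, and the p-values measure the spread between these pools. No 2 samples of a group held the same values across genes. Loci and motifs came from GENCODE M21 on GRCm38.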

Additional observations from a re-analysis of the deposited data

Results flagged for a closer look

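The difference between Nudt21-cKO and WT was itself different between 4 h and 0 h, by the interaction test with an adjusted p under 0.05, for Atg2a among the lipid supply genes, with a term of 1.25 on the log2 scale. Of the other autophagy genes listed, the same held for Map1lc3b, with a term of 1.16, and for Ulk1, with a term of 1.12. On a common median none of the 3 passed the adjusted threshold, with adjusted p-values of 0.0627 for Atg2a, 0.0622 for Map1lc3b and 0.0787 for Ulk1, while Atg2a passed with quantile normalization (0.0455) and at equal total coverage (0.033). With replicate number as a block, the adjusted call on Atg2a was lost, and 31 genes in place of 496 had an adjusted p under 0.05. Blocked values of Map1lc3b and Ulk1 are not given here. The median term of all genes tested was 0.20.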

How the results depend on the processing

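The member log2 fold changes under the alternatives kept direction and side of the threshold in 413 cases, fell short in 23, passed newly in 2 and changed sign in 24. The values with a changed sign at 4 h were -0.1312, -0.1577 and -0.0057 for Wipi1 and -0.3362, -0.2792 and -0.2109 for Wdr45b, in the order median-centring, quantile normalization and equal total coverage. In that order they were -0.0787, -0.1134 and -0.109 for Wdr45 at 0 h and -0.2144, -0.0153 and -0.0378 for the interaction term of Wdr45b. For stimulation, median-centring gave 0.6231 (Wdr45b) and 0.6479 (Atg9a) in WT and 0.4259 and 0.8535 in Nudt21-cKO, and quantile normalization gave Atg9a 0.0192 and 0.2696. Among the ratios, quantile normalization gave -0.0279 for Wipi2 over Wipi1 with stimulation in Nudt21-cKO and 0.0023 for Atg2b over Atg2a in WT. The cause was not tested.

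Of members called, requiring an adjusted p left 0 at 4 h, 0 at 0 h and 1 in the interaction, and each of the 3 scalings left 0 at 0 h. For Wipi2, Wdr45, Atg2a and Atg2b at 4 h, adjusted p-values were 0.00348 to 0.0175 with an intensity trend or all 8 samples in the fit, and with a pseudocount of 1 Wipi2, Atg2a and Atg2b had 0.0461, 0.0434 and 0.0449, within a range of 0.00348 to 0.332 over all alternatives. That of Wipi2 at 0 h was 0.0128 with an intensity trend and 0.0508 with all 8 samples in the fit, within 0.0128 to 0.377. Of the other autophagy genes, requiring an adjusted p left 2 at 4 h, 0 at 0 h and 2 in the interaction. At 0 h median-centring left 2, quantile normalization 2 and equal total coverage 1. For stimulation in Nudt21-cKO median-centring left 27, and quantile normalization left 7 in the interaction.

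With 1 sample left out, the lone sample of an arm was assumed to vary like the others. Members called then ranged from 3 to 4 at 4 h and from 0 to 1 at 0 h, and other autophagy genes from 7 to 14 and from 2 to 6, the latter without Nudt21-cKO replicate 4 of 0 h at its lowest. Ranges that crossed 0 were -0.0609 to 0.062 for Wdr45b at 4 h, -0.127 to 0.154 for Wdr45 and -0.079 to 0.0532 for Atg9a at 0 h, -0.0103 to 0.1125 for the interaction of Wdr45b, -0.2749 to 0.0652 for that of the Wipi2 to Wipi1 ratio, and -0.1117 to 0.2398 for Wdr45 over Wdr45b at 0 h.

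Over all genes, requiring an adjusted p changed the number called from 3736 to 577 at 4 h, from 2373 to 167 at 0 h and from 2851 to 496 in the interaction, and leaving out Nudt21-cKO replicate 4 gave 2243 at 4 h. The share of calls that were higher moved with median-centring from 83.3% to 51.2% at 4 h, from 61.6% to 50.9% at 0 h, from 17.8% to 60% with stimulation in WT, from 20.5% to 58.5% in Nudt21-cKO and from 76.9% to 45.8% in the interaction. Samples of 0 h and 4 h with the same number may have come from the same pools of mice, which the labels do not say. The r of their deviations, 0.053 in WT and 0.0579 in Nudt21-cKO, rests on few pairs and cannot settle this. With the replicate block, members called were 7 in WT, 6 in Nudt21-cKO and 3 in the interaction, the adjusted p of the Atg2a term was 0.143, so that its adjusted call was lost, and 31 genes in place of 496 had an adjusted p under 0.05 in the interaction. WT and Nudt21-cKO shared no number, so their comparison took no block. Depth is known only as coverage, so no counting interval was given.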
